A study of Mus musculus with 8 samples.

Results

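Lysozyme, oxidase, ITAM adaptor and related genes that are known from myeloid cells were measured in bulk libraries. The cells were sorted as antigen-specific CD8 T cells, for or against the inhibitory Fc receptor FcgRIIB. The 9 genes are Lyz2, Lyz1, Mpeg1, Cybb, Tyrobp, Sirpa, Cd14, Ly86 and Il1b. They were taken by symbol, all 9 were among the 13204 genes of the table, and all 9 were among the 11946 genes tested. The FcgRIIB-positive group (4 libraries) and the FcgRIIB-negative group (4 libraries) are both labelled as OT-I cells, T cells that carry a transgenic receptor for ovalbumin. They came from spleens on day 14 after grafting of skin that expresses ovalbumin. In both groups 1000000 OT-I cells had been transferred 24 hours before the graft, and the sort gate was CD44hi, Thy1.1+ and CD8+, so the groups differ by FcgRIIB staining alone as far as the labels say. Each replicate number is 1 pool of 3 spleens that gave 1000 sorted cells to each group, so replicates 1 to 4 pair the libraries, and single animals cannot be followed. The genotype and age of the graft recipients were not analysed here. Values are RPKM, read counts scaled to exon length and to the size of the library.

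Lysozymes cut the peptidoglycan of bacterial walls, and Mpeg1 codes for a pore-forming protein of phagosomes. Cybb codes for the membrane subunit of the phagocyte NADPH oxidase, which makes superoxide. Tyrobp codes for DAP12, an adaptor that lends its ITAM, a tyrosine motif that recruits the kinases Syk and Zap70, to receptors with no signalling tail of their own. Macrophages, monocytes, neutrophils and dendritic cells use these genes in different mixtures. Tyrobp is also known from natural killer cells, which bear DAP12-coupled receptors.

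All 9 genes had the higher mean in FcgRIIB-positive libraries, with log2 fold changes between 1.97 (Cybb) and 4.22 (Mpeg1) on the log2(RPKM + 1) scale. Their median was 2.63, beside -0.11 over all genes tested. In limma, with the group as the only term, 6 of the 9 rose (adjusted p under 0.05), where 3.03% of all genes tested did and 0.268% fell. With the pool of spleens as a block all 9 rose, where 7.22% of all genes did and 3.85% fell. Replicate by replicate, 8 of 9 were higher in all 4 pairs, where 10.3% of all genes were. The groups did not overlap for 7 of 9, where 4.61% of all genes had positive libraries all above negative ones. The genes were chosen with earlier results of these data known, so these counts describe them and do not test them as a set. After rescaling the libraries to a common sum 3 of the 9 were past the threshold, where 1.87% of all genes were. Of these Mpeg1 and Ly86 were also past it before, Tyrobp came past it (adjusted p = 0.0224), and Lyz1, Sirpa, Cd14 and Il1b were lost. Scaling the libraries to their core T cell genes moved the median of all genes to 0.77, and all 9 were called higher, where 11.0% of all genes were. In bulk libraries fewer cells of a type and less RNA per cell cannot be told apart.

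**Figure D1:**
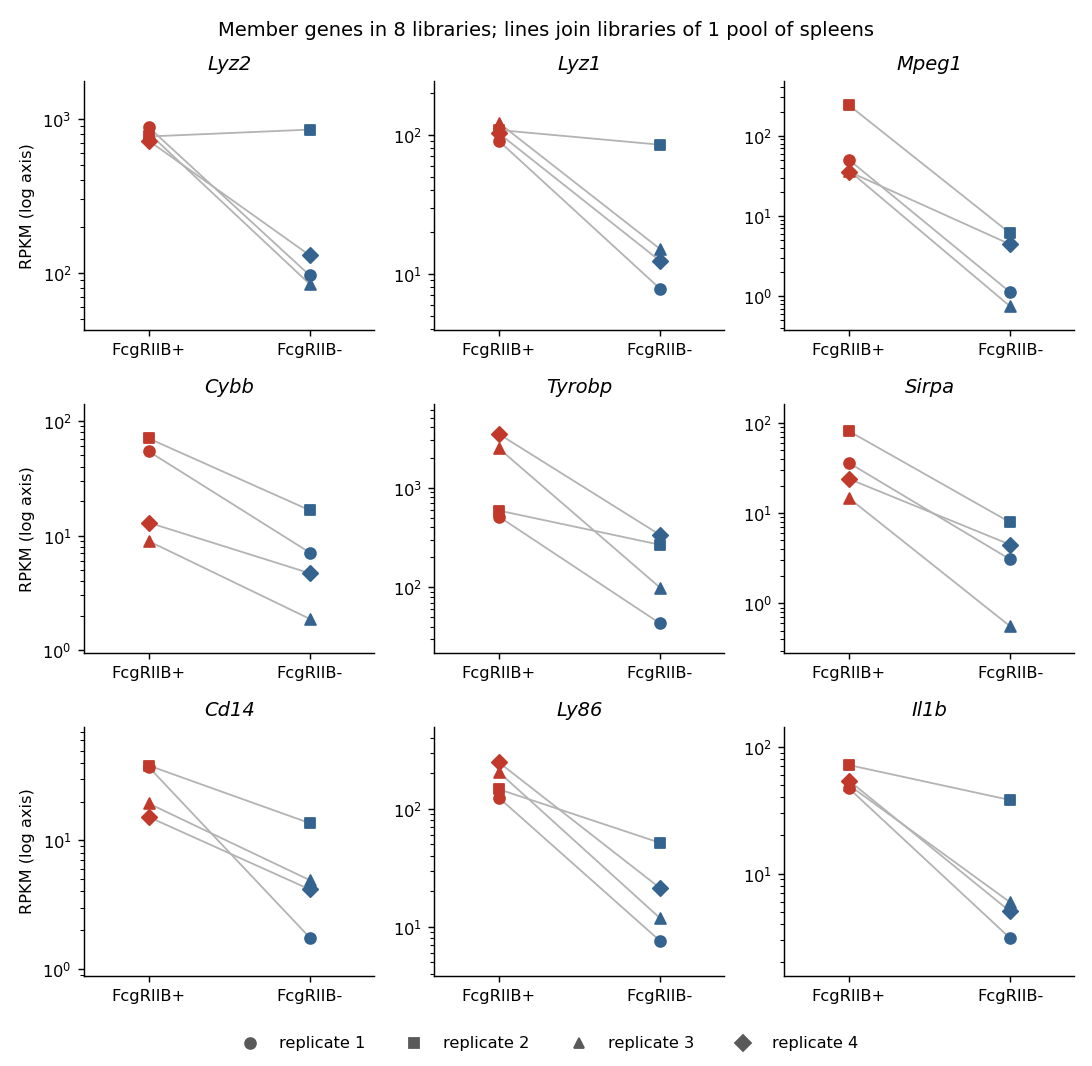
RPKM (log axis) of the 9 genes in FcgRIIB-positive (red, left) and FcgRIIB-negative (blue, right) libraries, with marker shapes for replicates 1 to 4 and lines joining libraries of the same pool of spleens. Lyz2 in replicate 2 is the only line that does not fall to the right, at 772 RPKM in the positive and 856 RPKM in the negative library.

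**Figure D2:**
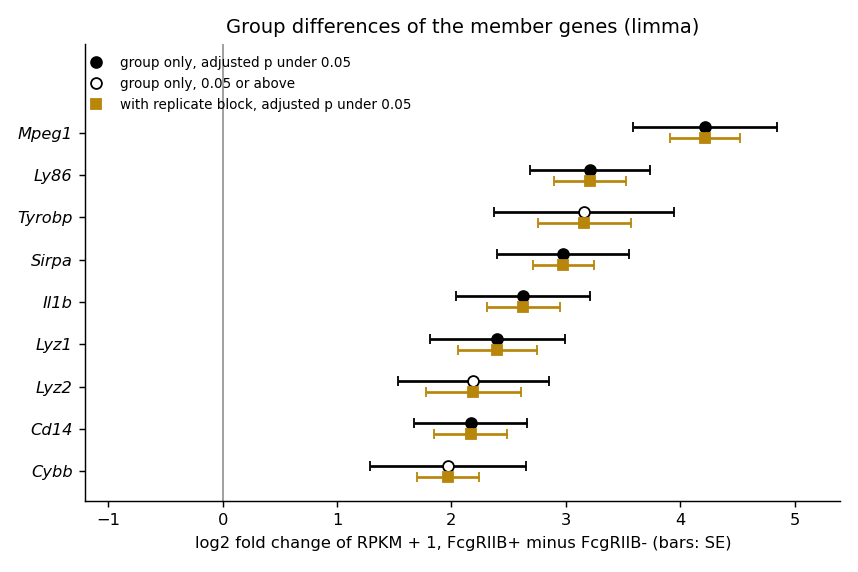
Log2 fold change of RPKM + 1, positive minus negative, with its SE, for each of the 9 genes. Black circles are the limma fit by group only (open where the adjusted p is 0.05 or above, as for Tyrobp, Lyz2 and Cybb), and gold squares are the fit with the replicate block, in which all 9 pass.

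The promoters of Lyz1, Lyz2 and Il1b are shown because these genes had the profiles over the 8 libraries that were most alike among the 9, and because Lyz1 and Lyz2 are copies of each other that lie side by side. RefSeq promoters (build GRCm38.p6, the 250 bases before the start) were found for 6 of the 9 genes. Capitals mark matches, on either strand, to the ETS core AGGAAGT, which factors such as PU.1 of myeloid cells bind, to TTNNGCAA, a form of the C/EBP motif, or to a box of the form TATAAA near which transcription can start. All 3 lie on the minus strand, Lyz1 at chr10:117292869-117293118, Lyz2 at chr10:117282273-117282522 and Il1b at chr2:129371140-129371389.
Lyz1: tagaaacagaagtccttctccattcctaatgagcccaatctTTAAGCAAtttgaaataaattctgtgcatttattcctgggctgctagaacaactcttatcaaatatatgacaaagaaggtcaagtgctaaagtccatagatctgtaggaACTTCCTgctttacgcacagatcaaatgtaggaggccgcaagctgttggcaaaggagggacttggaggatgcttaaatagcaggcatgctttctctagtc
Lyz2: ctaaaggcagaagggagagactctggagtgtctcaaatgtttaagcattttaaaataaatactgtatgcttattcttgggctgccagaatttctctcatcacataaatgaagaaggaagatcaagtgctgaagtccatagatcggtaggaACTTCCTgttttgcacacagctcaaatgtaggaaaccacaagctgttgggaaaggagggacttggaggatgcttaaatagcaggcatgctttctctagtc
Il1b: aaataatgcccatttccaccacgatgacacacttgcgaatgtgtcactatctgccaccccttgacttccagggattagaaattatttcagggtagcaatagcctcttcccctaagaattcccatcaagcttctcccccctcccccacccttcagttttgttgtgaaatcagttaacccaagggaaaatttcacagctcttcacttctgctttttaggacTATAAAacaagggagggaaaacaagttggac
Lyz1 and Lyz2 were identical at 200 aligned bases of these windows (79.4% of the alignment), and both held the ETS core 93 bases before the start. That core was found in 2 of the 6 promoters, and in 7.8% of 27025 promoters of the same length. TTNNGCAA was found in 1 of 6 (Lyz1) and in 9.55% of all, and the TATAAA box in 1 of 6 (Il1b) and in 13% of all. An NF-kappaB motif was also searched for, and it matched in 0 of the 6 windows and in 1.17% of all.

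Lyz2 is the lysozyme gene of macrophages and neutrophils. In positive replicates 1 to 4 its level was 886, 772, 812 and 724 RPKM, against 96.1, 856, 84.3 and 129.85 RPKM in negative replicates 1 to 4. The positive libraries were close to each other (798.5 ± 68.4 RPKM, SD, n = 4), and negative replicate 2 was as high as they were while the other negative libraries lay far below. At 2.19 (SE 0.66) the log2 fold change did not pass in limma (adjusted p = 0.127). It passed with the replicate block (adjusted p = 0.000798), and without negative replicate 2 (log2 fold change 2.96, adjusted p = 0.00478). With the block and without the pair of replicate 1 it did not pass (adjusted p = 0.0608).

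Lyz1, the lysozyme gene best known from Paneth cells of the gut, was at 90.7, 108.5, 122 and 102.8 RPKM in positive libraries, against 7.84, 85.1, 15.1 and 12.4 RPKM in negative libraries. Negative replicate 2 again stood close below the positive libraries, and the groups did not overlap. Lyz1 had a log2 fold change of 2.40 with an SE of 0.59 (adjusted p = 0.0487 in limma, and 2.39e-05 with the block). The call held without negative replicate 2 (log2 fold change 3.10, adjusted p = 0.00128). It was lost with a pseudocount of 0.1 (adjusted p = 0.0522) and without any 1 of the other 7 libraries, up to an adjusted p of 0.179 without negative replicate 3. Lyz1 stood at 10.2%, 14.1%, 15.0% and 14.2% of the Lyz2 level in positive libraries, against 8.16%, 9.94%, 18.0% and 9.56% in negative libraries, ranges that overlap. The longest coding transcripts of both genes in GENCODE M21 were 91.95% identical, and 16.1% of the 50-base stretches of Lyz1 also occurred in Lyz2. How the authors' counting divided reads that fit both genes is not known, so the values of Lyz1 are uncertain.

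Mpeg1 showed the largest difference of the 9. It was at 50.2, 240.4, 36.9 and 35.8 RPKM in positive libraries, against 1.13, 6.12, 0.752 and 4.45 RPKM in negative libraries. The groups were far apart, and positive replicate 2 was the highest by a wide margin. Its log2 fold change of 4.22 (SE 0.63), or 18.6-fold on the RPKM + 1 scale, passed in limma with an adjusted p of 0.00312. The call held in each of the 8 fits that leave out 1 library, the highest adjusted p being 0.0194, and the log2 fold change was 3.58 without positive replicate 2. Its negative value in replicate 3 rested on 24 reads.

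Cybb was at 54.3, 70.5, 8.94 and 12.96 RPKM in positive libraries, against 7.09, 16.6, 1.87 and 4.68 RPKM in negative libraries. Positive replicates 3 and 4 lay below negative replicate 2, so the groups overlapped, yet Cybb was higher in all 4 pairs, by 2.77 to 7.66 times. Cybb had the smallest log2 fold change of the 9, at 1.97. Its SE of 0.68 by group only (limma adjusted p = 0.207) became 0.27 with the replicate block (adjusted p = 1.27e-05). No single library left out brought it past the threshold in the fit by group only.

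Tyrobp had the highest mean of the 9 in positive libraries, though it lay below Lyz2 in positive replicates 1 and 2. It was at 511, 588, 2473 and 3444 RPKM in positive libraries, against 43.5, 267, 99.4 and 336 RPKM in negative libraries. Positive replicates 3 and 4 were several times higher than positive replicates 1 and 2, and all of them lay above the negative libraries. Its log2 fold change was 3.16 (SE 0.78), which missed the threshold in limma (adjusted p = 0.0507) and passed with the block (SE 0.41, adjusted p = 6.02e-06). By group only it passed without negative replicate 4 (adjusted p = 0.0395), positive replicate 1 (0.0464) or positive replicate 2 (0.0449). With an exon length of 566 bases Tyrobp is the shortest of the 9.

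Sirpa codes for a receptor that binds CD47 on other cells and recruits tyrosine phosphatases through its inhibitory motifs. It was at 36.1, 81.4, 14.7 and 24.0 RPKM in positive libraries, against 3.08, 7.94, 0.559 and 4.49 RPKM in negative libraries. No negative library reached the lowest positive one. Sirpa had a log2 fold change of 2.98 with an SE of 0.58 (adjusted p = 0.0137 in limma). Leaving out negative replicate 3 ended this call (adjusted p = 0.0513). The negative value in replicate 3 rested on 18 reads.

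Cd14 codes for the coreceptor that hands lipopolysaccharide to TLR4, and Ly86 for MD-1, the partner of the TLR4-like receptor CD180. Cd14 was at 37.3, 38.3, 19.4 and 15.2 RPKM in positive libraries, against 1.75, 13.6, 4.90 and 4.15 RPKM in negative libraries. The groups came close, as the lowest positive value was just above that of negative replicate 2. For Cd14 the log2 fold change was 2.17, with an SE of 0.49 (adjusted p = 0.0319 in limma). This call was lost without negative replicate 1 (adjusted p = 0.0861), 3 (0.109) or 4 (0.0708) and without positive replicate 1 (0.0931) or 2 (0.0864).

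Ly86 was at 124.7, 146.9, 205.6 and 248.5 RPKM in positive libraries, against 7.60, 51.6, 11.9 and 21.3 RPKM in negative libraries. Every positive library was well above the highest negative one. Ly86 had a log2 fold change of 3.21 with an SE of 0.52 (adjusted p = 0.00505 in limma), and each fit without 1 library kept the call (highest adjusted p 0.0321).

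Il1b, which codes for the inflammatory cytokine interleukin-1 beta, was at 47.0, 71.7, 49.9 and 54.1 RPKM in positive libraries, against 3.10, 38.025, 5.94 and 5.03 RPKM in negative libraries. As with the lysozymes, the positive libraries were alike (55.7 ± 11.1 RPKM, SD, n = 4) and negative replicate 2 was several times higher than the other negative libraries. Il1b had a log2 fold change of 2.63 with an SE of 0.58 (adjusted p = 0.0298 in limma). It was 3.33 without negative replicate 2 (adjusted p = 0.000966), and the call was lost without negative replicate 1 (0.0821), 3 (0.121) or 4 (0.0717) or positive replicate 1 (0.0585) or 2 (0.0707). The table divides Il1b reads by 4940 bases, 3.64 times its longest coding transcript in GENCODE M21 (1356 bases), so its level against the other genes is uncertain. The ratio of its RPKM between groups does not depend on that length, but the log2 fold change of RPKM + 1 does in part, through the added 1. With a pseudocount of 0.1 it was 2.81 (limma adjusted p = 0.0337).

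Ordered by mean RPKM in positive libraries, the 9 genes ran from Tyrobp (1754) over Lyz2 (798.5), Ly86 (181), Lyz1 (106), Mpeg1 (90.8), Il1b (55.7), Sirpa (39.1) and Cybb (36.7) to Cd14 (27.6). Neighbours in this order overlapped in their ranges over libraries except Lyz2 and Ly86, and Ly86 and Lyz1. By mean RPKM in negative libraries Lyz2 (291) stood above Tyrobp (186), and Mpeg1 was last at 3.11 RPKM. This order did not hold in each negative library. Tyrobp was 1.18 and 2.59 times as high as Lyz2 in negative replicates 3 and 4. Mpeg1 was above Sirpa in negative replicate 3 (0.752 against 0.559 RPKM) and above Cd14 in negative replicate 4 (4.45 against 4.15 RPKM). Mpeg1 had a mean above 91.9% of the genes tested in positive libraries and above 25.5% of them in negative libraries. Its positive mean was raised by replicate 2 (240.4 RPKM), beside 35.8 to 50.2 RPKM in the other positive libraries. The mean of Lyz2 was above 99.3% of the genes tested in positive and 97.4% in negative libraries. Its negative mean was raised by replicate 2 (856 RPKM), beside 84.3 to 129.85 RPKM in the other negative libraries.

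The 9 genes fell into different patterns across the replicates of the positive group, and these were not all repeated in the negative group. In positive libraries Tyrobp was 5.38 times as high in replicates 3 and 4 as in replicates 1 and 2, and Ly86 1.67 times. Cybb stood at 5.70 times, Mpeg1 at 4.00 times, Sirpa at 3.03 times and Cd14 at 2.18 times as high in replicates 1 and 2 as in replicates 3 and 4. Lyz1, Lyz2 and Il1b differed by at most 1.14 times between these pairs of positive replicates. Exon length moved with this split. Over all genes tested, those under 800 bases had a median log2 difference of 2.46 between positive replicates 3 and 4 and positive replicates 1 and 2, and those of 5000 bases and more of -0.40. The same medians in negative libraries were 1.39 and -0.05. Tyrobp (566 bases, 2.41 in positive libraries) lay near the median of its length class, whereas Cybb (5519 bases, -2.42) lay far below that of its own. The median group difference was within -0.26 to -0.02 in each of the 5 length classes. Depth also moved with the split, as replicates 1 and 2 had 16470000 to 22010000 reads and replicates 3 and 4 had 3060000 to 7360000. The part of length or depth in these differences was not tested.

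**Figure D3:**
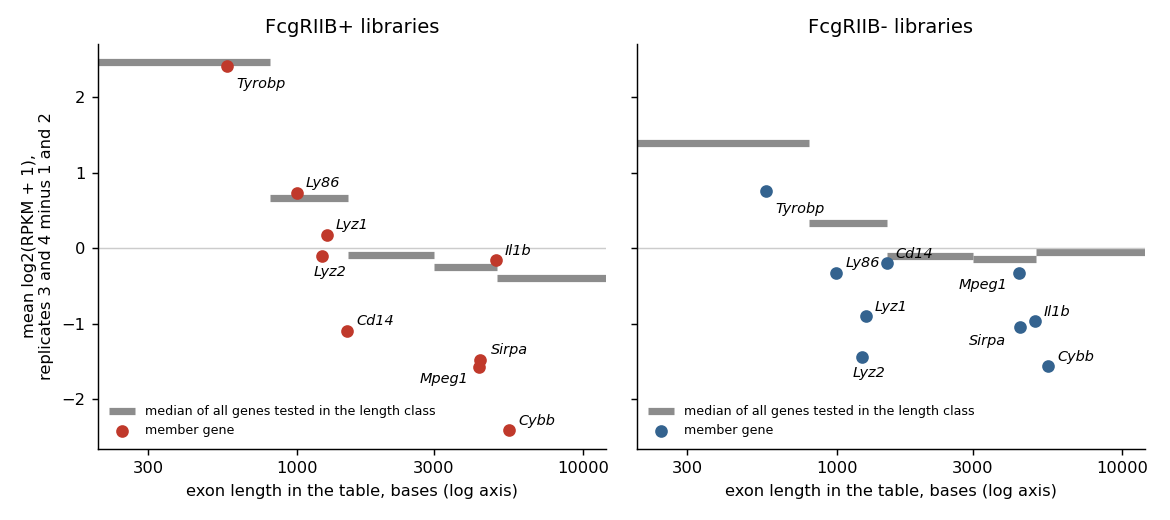
Mean log2(RPKM + 1) of replicates 3 and 4 minus that of replicates 1 and 2, against exon length in bases (log axis), for the 9 genes (points) and as medians of all genes tested in 5 length classes (grey bars), in positive (left) and negative (right) libraries. Tyrobp sits highest at 2.41 and Cybb lowest at -2.42 in positive libraries.

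Within replicates 1 and 2 alone 7 of 9 genes rose in limma (7.32% of all genes did) and within replicates 3 and 4 alone 8 of 9 rose (2.29% of all genes did), in fits of 4 libraries each. Lyz1 and Lyz2 did not pass in replicates 1 and 2 (log2 fold changes of 1.86 and 1.52), where negative replicate 2 holds 1 of the 2 negative values. Cybb did not pass in replicates 3 and 4 (log2 fold change of 1.54, and 2.40 in replicates 1 and 2). Tyrobp had a log2 fold change of 2.33 in replicates 1 and 2 and of 3.99 in replicates 3 and 4. Whether these pairs of replicates differ in the group effect was not tested.

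Likeness was measured as the root mean square difference of log2(RPKM + 1) profiles over the 8 libraries after each profile was centred on its own mean. Lyz1 and Il1b were the closest pair among the 9 (0.21), followed by Lyz1 and Lyz2 (0.35), and Tyrobp and Cybb were the farthest apart (2.03). Of all genes tested, Fcer1g, the other common ITAM adaptor of myeloid cells, was closest to Tyrobp (0.17), before Slpi and Lst1. Among the nearest genes outside the 9 were Fcgr3 for Lyz1, Lyz2 and Il1b (0.38, 0.41 and 0.36), Fgr, Slc40a1 and Myadm for Cybb (0.34 to 0.36), and Lyn and Osm, among others, for Sirpa (0.35 and 0.39). Mpeg1 was nearest to Fgd2, Tifab and Snx22 (0.47 to 0.49), Cd14 to H2-DMb2, Cd5l and Eif2s3y (0.18 to 0.25), and Ly86 to Ear2, AF251705 and Cd74 (0.27 to 0.35). The 8 libraries share 4 pools and 2 groups, so likeness over them is a description. Exon length moved with the split of replicates, and Tyrobp (566 bases) and Cybb (5519 bases) are the shortest and longest of the 9. The part of length in likeness was not tested.

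Many but not all genes that act with Tyrobp were higher too. Of the 22 other tested genes of DAP12 and ITAM signalling 9 rose in limma and none fell (13 rose and 1 fell with the block), with a median log2 fold change of 1.59. Fcer1g codes for the gamma chain of Fc receptors. It averaged 907 ± 712 RPKM in positive libraries, against 110.3 ± 75.4 RPKM in negative ones (SD, 4 libraries each), a log2 fold change of 3.00 (adjusted p = 0.0433 in limma). Among receptors that pair with these adaptors, Treml4 had a log2 fold change of 3.76, Sirpb1a of 3.15, Sirpb1b of 2.36, Cd300ld of 2.34 and Siglech of 1.95. Sirpb1a and Sirpb1b are close relatives of each other and of Sirpa, so reads shared between them make their values uncertain. The Src family kinase gene Lyn rose by 2.86 and the phospholipase gene Plcg2 by 1.98, both on the log2 scale. Several of these calls rested on single libraries. That of Fcer1g was lost without negative replicate 1, 2 or 3 or positive replicate 3 or 4 (adjusted p up to 0.156), that of Plcg2 without negative replicate 1, 2 or 3 or positive replicate 1 or 2 (up to 0.142), that of Lyn without negative replicate 3 (0.0738), that of Sirpb1b without negative replicate 1 or 3 or positive replicate 1, 2 or 4 (up to 0.119), and that of Siglech without negative replicate 1, 2 or 3 or positive replicate 1, 2 or 3 (up to 0.119). Rescaling to a common sum also ended the calls of Lyn (adjusted p = 0.0751), Plcg2 (0.171), Sirpb1b (0.0716) and Siglech (0.0621), and a pseudocount of 0.1 those of Sirpb1b (0.0547) and Siglech (0.0651). Hcst, the DAP10 adaptor of T and natural killer cells, averaged 813 RPKM in positive libraries against 957 RPKM in negative ones, and its partner receptor Klrk1 averaged 102.5 against 139.7 RPKM, neither past the test. With the block alone, and named after their values were seen, Syk (1.55), Btk (1.63), Lat2 (1.39) and Fgr (1.78) also rose, and Zap70, the T cell relative of Syk, fell by 0.89 on the log2 scale. In the block fit these calls were lost for Syk without the pair of replicate 1 (adjusted p = 0.0565) and for Zap70 without that of replicate 3 (0.0643) or 4 (0.0853).

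The oxidase partners of Cybb did not move as one. Of 9 other tested members of the complex Ncf1, a cytosolic organiser subunit, rose in limma, averaging 19.3 ± 9.53 RPKM in positive libraries against 4.74 ± 3.57 RPKM in negative ones (log2 fold change 1.92, adjusted p = 0.0408). Its call was lost without negative replicate 1 (adjusted p = 0.119), 3 (0.155) or 4 (0.0591) or positive replicate 1 (0.0889), 2 (0.115) or 4 (0.0502), and at a common sum (0.155). The others had a median near that of all genes (-0.13 over the 9, beside -0.11). Cyba, the small membrane subunit that pairs with Cybb, averaged 232 RPKM in positive libraries against 156 RPKM in negative ones, and the GTPase gene Rac2 averaged 353 against 649.8 RPKM, neither past the test. With the block 2 of the 9 rose and 1 fell, Hvcn1, a proton channel gene named after its value was seen, by 0.90 on the log2 scale. The fall of Hvcn1 was lost without the pair of replicate 3 (adjusted p = 0.12).

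Around Cd14 and Ly86, none of 13 other tested genes of the lipopolysaccharide receptor and CD180 complexes passed in limma (4 higher and none lower at an unadjusted p under 0.05), with a median of 0.54. Ly96, the MD-2 partner of TLR4, averaged 58.2 RPKM in positive libraries against 17.4 RPKM in negative ones, and the shared adaptor Myd88 averaged 77.8 against 71.5 RPKM. With the block Ly96 (1.41), Tlr4 (1.598) and Cd180 (1.56) rose, the last 2 named after their values were seen. Tlr4 was lost in the block fit without the pair of replicate 1 (adjusted p = 0.14), 2 (0.0543) or 3 (0.0596). Around Il1b, 1 of 15 other tested genes of the inflammasome and interleukin-1 axis rose and none fell, with a median of 0.82. That gene was Il18, another cytokine that caspase-1 processes, averaging 47.2 ± 15.7 RPKM in positive libraries against 7.06 ± 3.20 RPKM in negative ones (log2 fold change 2.63, limma adjusted p = 0.00344). The inflammasome adaptor Pycard averaged 102.5 RPKM in positive libraries against 113.7 RPKM in negative ones, and the pore gene Gsdmd averaged 68.7 against 63.6 RPKM, neither past the test. With the block Mefv (2.04), Nlrp3 (1.41) and Il1rn (1.31), named after their values were seen, also rose. All of them were lost without the pair of replicate 1 (adjusted p = 0.0838, 0.146 and 0.254), and Nlrp3 and Il1rn also without that of replicate 2 or 3.

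Around Sirpa, 3 of 8 other tested genes rose and none fell, with a median of -0.19. Besides Sirpb1a and Sirpb1b this was Skap2, a cytosolic adaptor of the Sirpa complex, averaging 165 ± 63.7 RPKM in positive libraries against 19.7 ± 10.2 RPKM in negative ones (log2 fold change 3.04, limma adjusted p = 0.00218). The phosphatase gene Ptpn6 averaged 189 RPKM in positive libraries against 233.5 RPKM in negative ones, and Cd47, the ligand, averaged 88.1 against 111.5 RPKM, neither past the test.

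**Figure D4:**
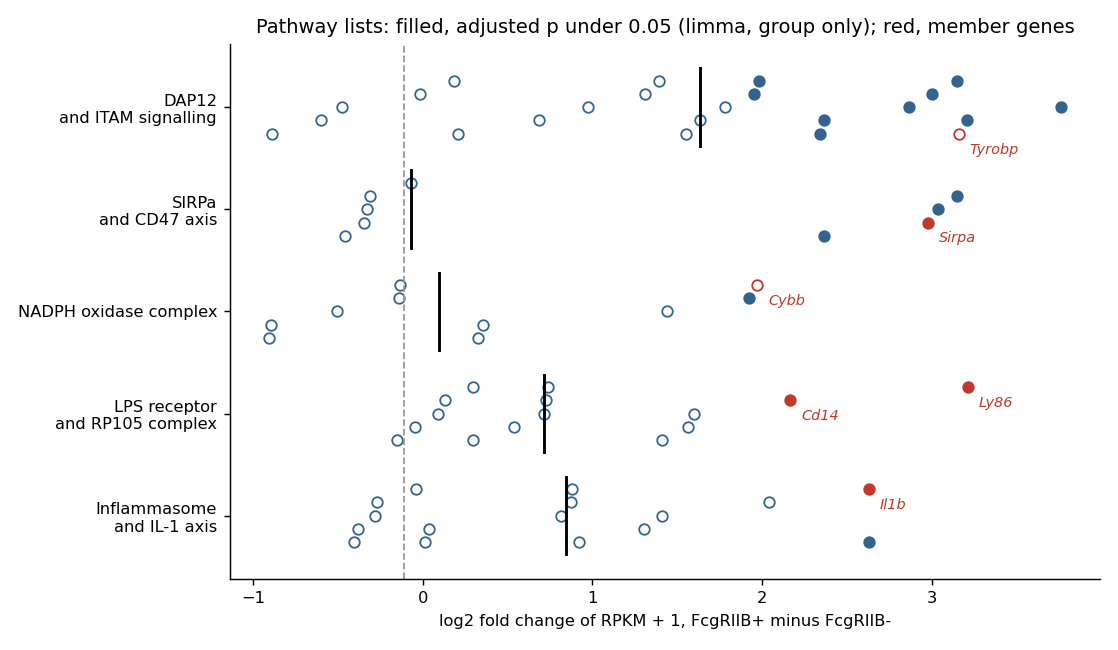
Log2 fold change of RPKM + 1, positive minus negative, of the tested genes of 5 pathway lists, filled where limma's adjusted p by group only is under 0.05. Those of the 9 genes that are in these lists are red (Tyrobp, Cybb, Cd14, Ly86, Il1b and Sirpa). Black bars are list medians and the dashed line is the median of all genes tested (-0.11). The filled points lie at 1.92 and above in every list.

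Markers of other cell types moved in the same libraries, and their part in the values above was not tested. Summed RPKM of 10 red pulp macrophage markers was 979 to 1699 in positive and 102 to 379.6 in negative libraries, and 8 of 10 rose in limma (10 with the block). For 10 conventional dendritic cell markers, Sirpa among them, the sums were 393 to 847 in positive and 18.6 to 72.0 in negative libraries, and 8 of 10 rose (10 with the block). Basophil and mast cell markers summed to 73.9 to 1261 and 4.30 to 40.1 (3 of 8 rose, and all 8 with the block). Monocyte markers overlapped at 935 to 2556 and 1672 to 3284 (1 of 7 rose, Csf1r, and 4 with the block), a sum led by Ly6c2, which activated CD8 T cells also express. Neutrophil markers summed to 24.7 to 746 and 239 to 2107, with 0 of 10 past limma's threshold and none at an unadjusted p under 0.05 (1 lower with the block, Ngp). Natural killer cell markers (940.5 to 4523 and 2366 to 5341) had 1 of 6 called higher, Klri2, plasmacytoid dendritic cell markers (151.8 to 615 and 147 to 386) 1 of 6, Siglech, B cell markers (70.1 to 198.5 and 77.7 to 426) 0 of 6 and none at an unadjusted p under 0.05 (1 lower with the block), and erythroid and platelet markers (1190 to 5934 and 922 to 2257) 0 of 5 and 1 at an unadjusted p under 0.05 (1 higher with the block). No marker in the table was at 0 in every library of a group. Genes of the labelled cell type, 16 core T cell genes, were present in all libraries. They summed to 1660 to 3624 RPKM in positive and 4707 to 7260 RPKM in negative libraries. In limma 0 of 16 passed the threshold, 8 were lower at an unadjusted p under 0.05, and 10 were lower with the block. Their presence cannot show that a bulk library holds T cells alone. Cd8a ranged over 153 to 239.5 RPKM in positive libraries against 165 to 330.4 RPKM in negative ones, and Fcgr2b, the gene of the sorted receptor, at 29.6 to 69.9 and 1.82 to 4.82 RPKM.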

How the data were processed

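RNA of 8 libraries (SMART-seq v4 cDNA, NexteraXT, per the labels' protocols) was read from 1 table of RPKM per gene, as the authors deposited it. The submitters' processing notes name TopHat2, with no version, and mm9. The counting method and use of strand are not given in the sources used. Every gene in the table reached 3 RPM in at least 4 libraries. Depth was recovered from values that are whole multiples of 1 read (100% within 0.1 reads), at 3060000 to 22010000 reads. Reads of amplified cDNA are not independent molecules.

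limma 3.58.1 (R 4.3.3; lmFit, eBayes with trend, two-sided) was run on log2(RPKM + 1), group only, over 11946 genes that reach 1 RPKM in 4 or more libraries, with Benjamini-Hochberg adjustment and a threshold of 0.05. Fold changes on this scale understate low genes. A fit blocked on the replicate number is given where it changes a call. The numbers mark pools, per the series design text, and deviations correlated at 0.41 to 0.70 within pairs. In the block fit 3 residual degrees of freedom are joined by 18.4 borrowed over genes. The fit was tested on simulated data.

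Members and lists were chosen with earlier results of these data known. Named pathway genes are the called ones and the 2 most abundant uncalled ones per list. For likeness the 3 nearest genes were taken. Some genes that these rules name are not reported here. The split by exon length, and the block fit without each pair, were added after seeing the data. Alternatives were another pseudocount, no filter, other scalings, subsets of replicates and single libraries left out.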

Additional observations from a re-analysis of the deposited data

Results flagged for a closer look

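Among 18 sets of 4 RPKM values (9 genes, 2 groups), 4 had a highest value that stood apart from the other 3 by more than Dixon's 95% limit. Chance flags about 1 in 20 independent sets of normally distributed values. These sets share libraries and were taken on RPKM, not on its log, so that rate need not hold for them. In 3 of them the library was negative replicate 2, at 856 RPKM for Lyz2, 85.1 RPKM for Lyz1 and 38.025 RPKM for Il1b. In the same library the summed RPKM of red pulp macrophage, neutrophil, B cell and plasmacytoid dendritic cell markers was the highest of the 4 negative libraries, at 379.6, 2107, 426 and 386. Its natural killer cell sum was the lowest of them (2366). Its sums for the remaining lists were neither highest nor lowest, as for conventional dendritic cells (37.3) and monocytes (1802). The remaining flag was Mpeg1 in positive replicate 2, at 240.4 RPKM, the library with the highest red pulp macrophage and conventional dendritic cell sums (1699 and 847) and the lowest core T cell sum (1660). Its neutrophil, monocyte, natural killer cell, and erythroid and platelet sums were the lowest of the positive libraries (24.7, 935, 940.5 and 1190). Its sums for the remaining lists lay in between. The part of these cell types in the flagged values was not tested.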

How the results depend on the processing

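No gene of the 9 and none of the 12 called pathway genes changed direction under any alternative run. By group only, 362 genes were higher and 32 lower in positive libraries, and 6 of the 9 genes rose. With libraries at a common sum this was 223 higher, 8 lower and 3 of the 9. With core T cell scaling 1310 were higher and 2 lower. In replicates 1 and 2 alone 875 were higher and 142 lower, and in replicates 3 and 4 alone 273 were higher and 11 lower. The cause of these shifts was not tested. Leaving out 1 library at a time gave 178 to 503 genes higher, 5 to 45 lower and 2 (without negative replicate 3) to 7 (without negative replicate 2) of the 9.

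With the replicate block, which pairs libraries of 1 pool, 863 genes were higher and 460 lower. The block fit without the pair of replicate 1, 2, 3 or 4, added after seeing the data, gave 576, 800, 617 and 1242 higher and 261, 350, 157 and 458 lower, with 8, 9, 9 and 9 of the 9 genes called. Without the pair of replicate 2 or 4 the borrowed degrees of freedom were infinite, so the calls of those fits used no variance of the gene itself.

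Counts of called genes in the pathway lists, those of the 9 genes that are in them included, moved as well. For DAP12 and ITAM signalling 9 rose by group only, 6 at a common sum, 14 with core T cell scaling, 14 with the block (13, 16, 14 and 16 without pair 1 to 4), 16 in replicates 1 and 2, and 4 to 11 with 1 library left out. For the oxidase 1 rose by group only, 0 at a common sum, 4 with core T cell scaling, 3 with the block (3 without any pair), 3 in replicates 1 and 2, 0 in replicates 3 and 4, and 0 to 1 with 1 library left out. For the lipopolysaccharide receptor list 2 rose by group only, 1 at a common sum, 7 with core T cell scaling, 5 with the block (4, 4, 4 and 6 without pair 1 to 4), 5 in replicates 1 and 2, and 1 to 2 with 1 library left out. For the inflammasome list 2 rose by group only, 1 at a common sum, 5 with core T cell scaling, 5 with the block (2, 4, 3 and 9 without pair 1 to 4), 7 in replicates 1 and 2, and 1 to 4 with 1 library left out. For Sirpa and Cd47 4 rose by group only, 2 at a common sum, and 2 to 4 with 1 library left out. Over the lists 0 fell by group only and 2 with the block (2, 2, 0 and 1 without pair 1 to 4). Low values rest on few reads, down to 18 for Sirpa, and the pools of animals limit what the p-values cover.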

Other observations

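Genes of neutrophils, cells in which Lyz2 is also abundant, differed widely between libraries of the same group. Of the 10 neutrophil markers tested 5 had a log2 fold change above 0. In positive replicates 1 to 4 the level of Ngp was 263, 0.63, 1.19 and 1.62 RPKM, against 387, 570.4, 1.404 and 5.92 RPKM in negative replicates 1 to 4. Ngp was lower in the positive library of all 4 pairs, which did not pass by group only (log2 fold change -2.64, limma adjusted p = 0.732) and passed with the block (0.0272). Ltf was at 79.5, 0.07, 2.02 and 1.37 RPKM in positive libraries, against 102.0, 101.0, 0.94 and 3.22 RPKM in negative libraries. Mpo went the other way, at 0.14, 0.68, 176 and 5.25 RPKM in positive libraries, against 0.02, 0.05, 1.33 and 4.50 RPKM in negative libraries. It was higher in all 4 pairs (log2 fold change 1.82) and Retnlg in 3 of 4 (0.62), neither past the test. S100a8 was at 0.23 RPKM in positive replicate 2, where Lyz2 stood at 772 RPKM, and at 743 RPKM in negative replicate 2, where Lyz2 stood at 856 RPKM.

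Eif2s3y, one of the genes nearest to Cd14 in profile, lies on the Y chromosome, and other sex-linked genes were looked at after that was seen. Eif2s3y was at 16.7, 28.9, 12.6 and 9.70 RPKM in positive libraries, against 1.42, 9.64, 2.92 and 2.78 RPKM in negative libraries (log2 fold change 1.91, SE 0.46, limma adjusted p = 0.0445). Ddx3y, also Y-linked, was at 23.5, 34.6, 5.25 and 8.16 RPKM in positive libraries, against 1.55, 3.42, 1.01 and 0.903 RPKM in negative libraries (log2 fold change 2.54, SE 0.52, limma adjusted p = 0.0189). Kdm5d and Uty, below the filter, were higher in the positive library of all 4 pairs. Xist, expressed from the inactive X chromosome of females, was at 0.591, 0.251, 0.702 and 1.24 RPKM in positive libraries, against 1.315, 1.21, 1.65 and 4.255 RPKM in negative libraries, lower in all 4 pairs and not past the test. The sex of donors and recipients was not analysed here.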
